A study of Homo sapiens with 2 samples.

Results

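The genes described here are 10 members of the BCL2 family of apoptosis regulators: BCL2, BCL2L1 and MCL1, BAX and BAK1, and BBC3, PMAIP1, BCL2L11, HRK and BID. They were chosen by name and without a filter on counts, though with earlier results of these data known. Each matched 1 row of the table, which held 62699 genes with counts. RNA was sequenced from HCC1954, an established human breast cancer cell line with amplification of ERBB2, the gene of the HER2 receptor. One library carries the genotype label ASO-1235 and one the label ASO-NC, and the series asks about the role of the long non-coding RNA LINC01235 in these cells. Both come from the same line, and the labels spell out neither name and give no dose, time or further treatment. Polyadenylated RNA was captured, so the values are of mRNA and not of protein.

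The family decides whether the outer membrane of mitochondria is opened, which releases cytochrome c and commits the cell to apoptosis. Pro-survival members hold the pore-forming members BAX and BAK1 in check, and the BH3-only members, named for the one domain they share with the rest, relay stress signals and bind the pro-survival proteins or activate the pore formers directly. Much of the control lies in the protein (cleavage of BID, turnover of MCL1 and PMAIP1, phosphorylation of BCL2L11), which RNA counts do not show. In breast cancer cells, BCL2L1 and MCL1 are known as the survival factors that many tumours rely on.

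The ASO-1235 library held 37916307 counts and the ASO-NC library 48092494. With a single library on each side, differences have no replicate check, carry no p-value and set 1 library against the other, not one condition against the other. A ratio above 1 means more RNA in ASO-1235 than in ASO-NC after TMM scaling, and CPM, the depth-scaled read count, is scaled in the same way. Their 95% intervals are exact (Clopper-Pearson) and taken on halved counts, since 64.0% of the counts from 1 to 1000 in the ASO-1235 library and 67.5% in the ASO-NC library were even numbers. Intervals cover counting error only. LINC01235 had 0 counts in the ASO-1235 library and 1337 in the ASO-NC library. With a floor of 3 counts, not halved, in place of the 0, it was 373-fold lower in ASO-1235. A floor on halved counts would give a smaller fold and was not computed. All 8 epithelial markers examined, among them EPCAM and KRT8, were at 1 CPM or more. Of the leukocyte, fibroblast, endothelial and adipocyte markers, 1 each reached it (LYZ, COL1A1, VWF and PLIN1), and the leukocyte markers summed to 1.54 CPM in ASO-1235 and 2.23 CPM in ASO-NC. The fibroblast markers summed to 40.9 CPM in ASO-1235 and 45.1 CPM in ASO-NC, nearly all of it COL1A1. The endothelial markers summed to 7.40 CPM in ASO-1235 and 8.07 CPM in ASO-NC, and the adipocyte markers to 3.48 CPM in ASO-1235 and 5.03 CPM in ASO-NC. Which cells of the HCC1954 line held these marker RNAs was not tested, nor was any bearing on the members' values. In such bulk samples, fewer cells that hold an RNA and less of it per cell cannot be told apart.

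Promoter windows, of 250 bases before to 50 bases after the start of transcription, were found in the RefSeq table (GRCh38.p14) for 9 of the 10 members, MCL1 being the one without. Of these windows, 3 are shown: those of HRK and BCL2L11, the members with the highest and next highest ratio as measured, and that of BAX. As measured, the RNA of BAX was nearly equal in both libraries. Capitals mark GGGCGG (the GC box) in HRK, GTAAACA (a forkhead element, the kind bound by FOXO factors) in BCL2L11 and CACGTG (an E-box) in BAX, each searched on both strands.
HRK, chr12:116881392-116881691, minus strand: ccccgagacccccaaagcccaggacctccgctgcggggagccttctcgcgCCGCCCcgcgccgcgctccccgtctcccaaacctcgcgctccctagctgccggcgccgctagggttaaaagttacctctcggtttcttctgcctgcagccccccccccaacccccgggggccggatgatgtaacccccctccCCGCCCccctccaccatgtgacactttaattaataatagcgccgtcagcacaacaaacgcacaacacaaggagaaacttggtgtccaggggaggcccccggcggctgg
BCL2L11, chr2:111120664-111120963, plus strand: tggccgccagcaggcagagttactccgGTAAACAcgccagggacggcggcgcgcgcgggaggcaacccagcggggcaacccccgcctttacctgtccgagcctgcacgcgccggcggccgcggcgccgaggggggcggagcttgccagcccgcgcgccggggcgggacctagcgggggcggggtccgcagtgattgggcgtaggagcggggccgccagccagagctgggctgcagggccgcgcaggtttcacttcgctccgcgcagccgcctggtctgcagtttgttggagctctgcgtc
BAX, chr19:48954625-48954924, plus strand: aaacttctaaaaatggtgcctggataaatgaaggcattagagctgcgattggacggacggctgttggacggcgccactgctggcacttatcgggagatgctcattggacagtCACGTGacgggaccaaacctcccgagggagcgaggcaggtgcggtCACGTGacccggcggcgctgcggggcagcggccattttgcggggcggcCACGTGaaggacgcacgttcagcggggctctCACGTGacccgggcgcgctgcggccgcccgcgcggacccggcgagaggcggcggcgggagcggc
The BAX window held 4 E-boxes, starting 138, 93, 45 and 14 bases before the start, whereas 7.26% of all 35116 windows held at least 1. BCL2L11 held its forkhead element 223 bases before the start, a motif in 3.42% of all windows. The BCL2L11 window also held 3 GC boxes and 1 CCAAT box (CCAAT), and that of BAX held 2 of each, all left unmarked. The CCAAT box is in 34.6% of all windows. HRK held 2 GC boxes, which 44.95% of windows hold at least once. HRK held none of the other motifs searched, which were the E-box, the forkhead element, TGACGTCA (a cyclic AMP response element), TGACTCA (an AP-1 element), CCAAT and TATAAA. These are matches of letters, not sites shown to be bound.

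Per kilobase of exon, the family's RNA in HCC1954 was mostly that of MCL1 and BCL2L1. MCL1, a short-lived pro-survival protein, stood at 78.5 CPM per kb in ASO-1235 and 70.1 CPM per kb in ASO-NC. BCL2L1, whose main product is BCL-XL, stood at 49.7 CPM per kb in ASO-1235 and 52.2 CPM per kb in ASO-NC. Together with BCL2 they made up 70.4% of the length-scaled family level in ASO-1235 and 70.7% in ASO-NC. BCL2 itself, the founding member, took 0.880% in ASO-1235 and 1.12% in ASO-NC, the lowest share but for HRK. The pore formers made up 12.1% in ASO-1235 and 12.0% in ASO-NC, and the BH3-only members 17.5% in ASO-1235 and 17.3% in ASO-NC.

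The order of the levels below MCL1 and BCL2L1 was close. PMAIP1 and BAX stood at 12.5 and 12.4 CPM per kb in ASO-1235 and at 11.7 and 12.3 in ASO-NC, and their counting intervals overlapped in both libraries. BAK1 followed with 9.92 CPM per kb in ASO-1235 and 8.82 in ASO-NC. BCL2L11 and BID stood in a different order in each library: BCL2L11 had 7.27 CPM per kb (6.82 to 7.75) and BID 6.88 (6.34 to 7.45) in ASO-1235, overlapping, while in ASO-NC BCL2L11 had 6.05 (5.67 to 6.45) and BID 7.63 (7.11 to 8.18), which do not overlap. BBC3, at 5.43 CPM per kb in ASO-1235 and 4.92 in ASO-NC, came next, then BCL2 and HRK. The exon length decides part of this order: with the longest transcript in place of all exons, BAX stood at 23.5 CPM per kb in ASO-1235 and 23.4 in ASO-NC, well above PMAIP1 at 14.3 in ASO-1235 and 13.4 in ASO-NC. On that scale BAK1 ranked below BID, which ranked above BCL2L11 in both libraries, and MCL1 took 37.6% of the family in ASO-1235 and 34.9% in ASO-NC, in place of 42.6% and 39.8%.

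**Figure D1:**
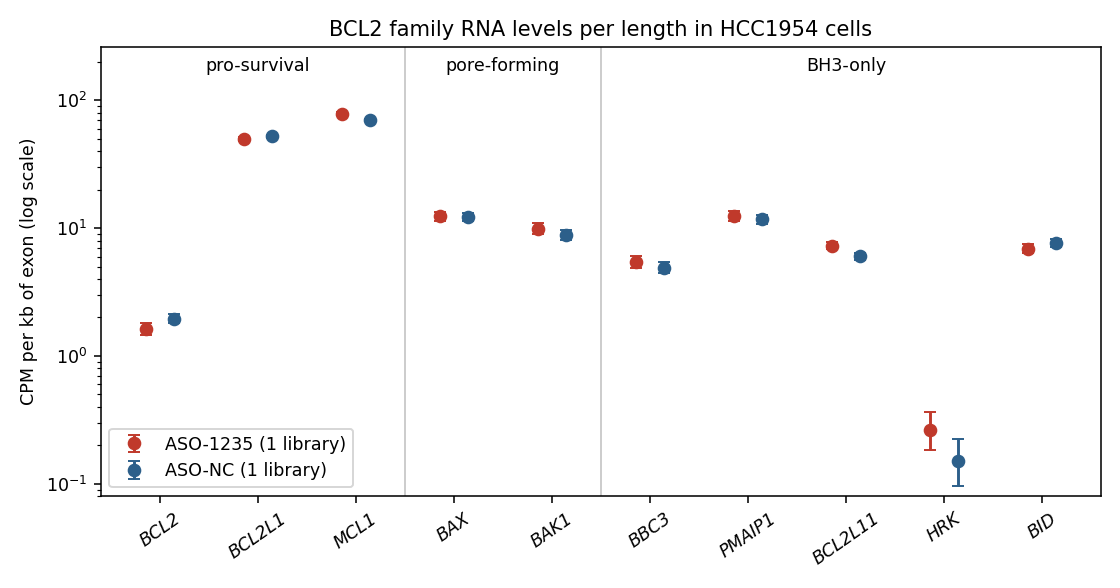
Level of each BCL2 family member in CPM per kb of exon (vertical, log scale), with the ASO-1235 library left of the ASO-NC library and exact Poisson 95% intervals on halved counts. MCL1 and BCL2L1 stand between 49.7 and 78.5 CPM per kb in both libraries and HRK lies lowest, at 0.262 in ASO-1235 and 0.150 in ASO-NC.

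The ratios of the pro-survival members lay on both sides of 1. BCL2 (ENSG00000171791.14, chromosome 18 from 63123346 to 63320128, minus strand) had 746 counts in ASO-1235 and 1078 in ASO-NC, which is 19.1 CPM and 23.1 CPM. Its ratio of 0.827 (0.723 to 0.946) was the lowest of the 10 members. BCL2L1 (ENSG00000171552.14, chromosome 20 from 31664452 to 31723989, minus strand) had 6433 counts in ASO-1235 and 8078 in ASO-NC, 165 CPM and 173 CPM, a ratio of 0.952 (0.909 to 0.998). That small difference turned to the other side of 1 when libraries were scaled by total count, and also when the trend of the ratio on GC content and length was removed (1.06, interval 1.01 to 1.11). MCL1 (ENSG00000143384.14, chromosome 1 from 150574551 to 150579738, minus strand) had 13404 counts in ASO-1235 and 14298 in ASO-NC, 343 CPM and 306 CPM. As measured, MCL1 was the one pro-survival member that was higher in ASO-1235, with a ratio of 1.12 (1.08 to 1.16). With the trend removed MCL1 was at 1.07 (1.04 to 1.11), close to BCL2L1. None of the 3 reached 1.5-fold.

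As measured, the intervals of both pore formers included 1. With the GC and length trend removed both lay above 1, at 1.14 (1.03 to 1.27) for BAX and 1.27 (1.11 to 1.45) for BAK1. BAX (ENSG00000087088.21, chromosome 19 from 48954815 to 48961798, plus strand), which moves to the mitochondrial membrane on activation, had 1248 counts in ASO-1235 and 1487 in ASO-NC, 32.0 CPM and 31.8 CPM. The ratio of 1.004 (0.901 to 1.12) lies at the middle of all genes, with 49.5% of the genes tested above it, though it lay slightly below 1 with DESeq2 size factors. BAK1 (ENSG00000030110.14, chromosome 6 from 33572547 to 33580293, minus strand), which resides in that membrane, had 857 counts in ASO-1235 and 911 in ASO-NC, 21.9 CPM and 19.5 CPM. Its ratio was 1.12 (0.984 to 1.29).

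Of the 5 BH3-only members, BCL2L11 and HRK had intervals above 1 as measured, and those of BBC3, PMAIP1 and BID included 1. BCL2L11 (ENSG00000153094.25, chromosome 2 from 111119378 to 111168447, plus strand), which encodes BIM, had 1891 counts in ASO-1235 and 1880 in ASO-NC. Scaled, these were 48.4 CPM and 40.3 CPM, a ratio of 1.20 (1.10 to 1.32). After HRK this was the highest ratio of the family as measured, and 20.8% of all genes tested had a higher one. With the GC and length trend removed it was 1.15 (1.05 to 1.26), below BAK1 at 1.27 and BBC3 at 1.24. GENCODE 29 lists 25 transcripts for the gene, and the counts per gene do not separate the BIM isoforms.

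HRK (ENSG00000135116.9, chromosome 12 from 116856144 to 116881441, minus strand) binds BCL2 and BCL-XL and is known from neurons. This gene was close to the minimum of 1 CPM used for calls. It had 70 counts in ASO-1235 and 48 in ASO-NC, 1.79 CPM and 1.03 CPM. The ratio of 1.74 (1.01 to 3.06) was the single one of the family past 1.5-fold, and its interval reached almost to 1. With DESeq2 size factors the interval included 1 (1.71, 0.988 to 3.001). HRK passed the minimum of 1 CPM before scaling in ASO-1235 alone, at 1.85 there and 0.998 in ASO-NC.

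The other BH3-only members differed by less. BBC3 (ENSG00000105327.18, chromosome 19 from 47220822 to 47232766, minus strand), which encodes the p53-induced protein PUMA, had 674 counts in ASO-1235 and 731 in ASO-NC, 17.3 CPM and 15.7 CPM, a ratio of 1.10 (0.948 to 1.28). PMAIP1 (ENSG00000141682.12, chromosome 18 from 59899948 to 59904306, plus strand) encodes NOXA, which binds MCL1 above all. It had 1087 counts in ASO-1235 and 1221 in ASO-NC, 27.8 CPM and 26.1 CPM, a ratio of 1.06 (0.947 to 1.20) that lay at 0.931 once the GC and length trend was taken out. BID (ENSG00000015475.19, chromosome 22 from 17734138 to 17774770, minus strand), which death receptor signals activate by cleavage, had 1194 counts in ASO-1235 and 1584 in ASO-NC, 30.6 CPM and 33.9 CPM. Its ratio was 0.901 (0.809 to 1.004). The intervals of all 3 included 1 as measured, and that of BBC3 lay above 1 with the trend removed (1.24, 1.07 to 1.45).

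**Figure D2:**
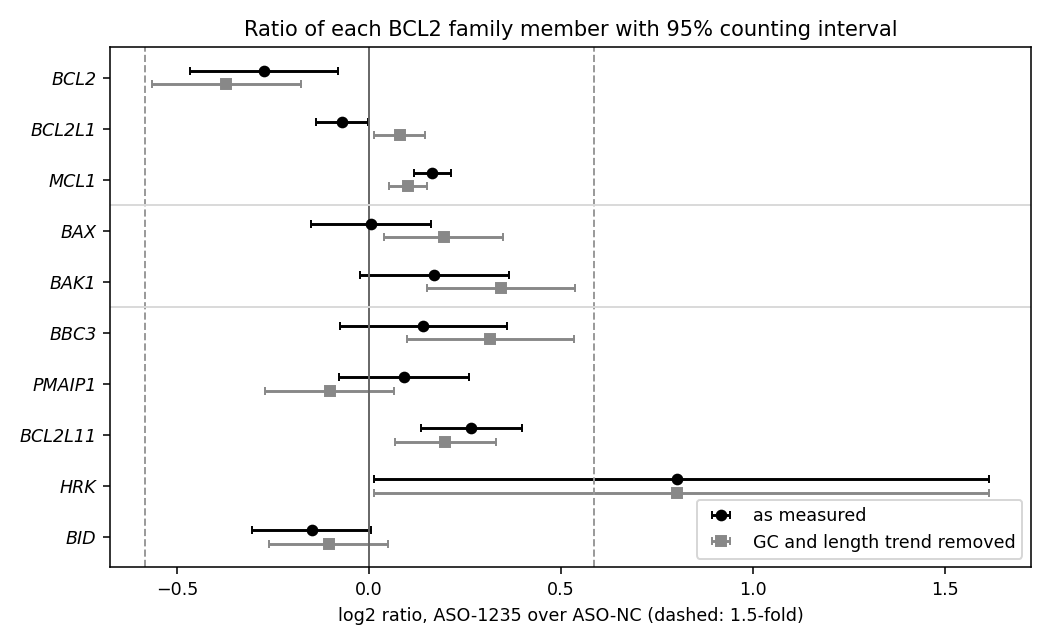
log2 ratio of ASO-1235 over ASO-NC (horizontal) for each member, ordered by role, as measured (circles) and after removal of the trend on GC content and length (squares), with 95% counting intervals; dashed lines mark 1.5-fold. HRK is the one point past a dashed line, BCL2 lies lowest, and BCL2L1 and PMAIP1 change sides of 0 when the trend is removed.

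Gene positions are those of GENCODE 29 on GRCh38. In that annotation 727 bases of BCL2L11 exons are shared with MIR4435-2HG on the opposite strand, which had 41 counts in ASO-1235 and 44 in ASO-NC. ABALON, opposite to 1424 bases of BCL2L1 exons, had 0 counts in both libraries. The strand setting of the counting is not given in the sources used here, so reads of such partners cannot be told apart. BAX, PMAIP1 and HRK overlap no annotated gene.

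Set against all genes, the family's ratios were ordinary in size. A gene was called when it reached 1 CPM before scaling in at least 1 library, was at least 1.5-fold apart and had an interval that excluded 1. By this rule 1 of 10 members (HRK) was called higher, where 5.20% of 14352 genes were, and 0 were called lower, where 2.0% of genes were. Among the 1541 genes with a mean of 1 to 2 CPM, the range in which HRK lies, 12.1% were called higher. The other 9 members all had a mean of 15 CPM or more and none was called, against 1.27% called higher and 0.339% called lower of the 7967 genes at that level. By the interval alone, at any size, 3 members (HRK, BCL2L11 and MCL1) were higher and 2 (BCL2 and BCL2L1) lower. Of all genes, 22.8% were higher and 23.0% lower. With the GC and length trend removed, the intervals of BCL2L1, MCL1, BAX, BAK1, BBC3, BCL2L11 and HRK lay above 1. That of BCL2 lay below 1, and those of PMAIP1 and BID included 1. The share of all genes by the interval alone was not computed for that setting. The median log2 ratio of the 10 members was 0.12, with 7 above 0 and 3 below, and that of all genes tested was 0.00. Between the quartiles of all genes, at −0.19 and 0.22, lay 7 of the 10 members. All 10 passed the minimum, HRK through the ASO-1235 library alone.

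**Figure D3:**
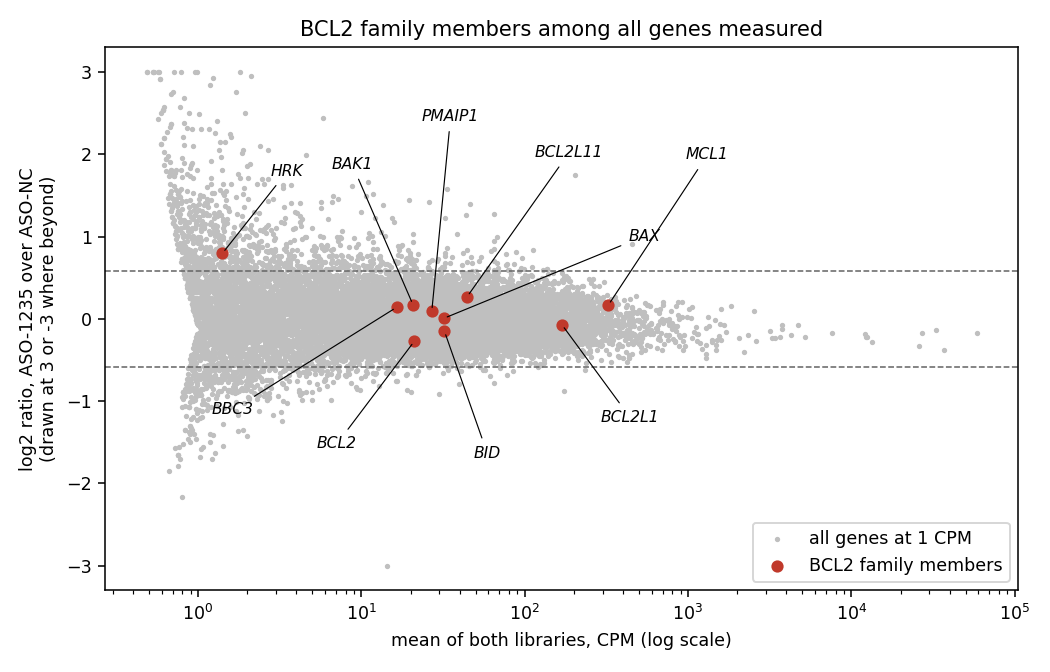
log2 ratio of ASO-1235 over ASO-NC (vertical) against the mean CPM of both libraries (horizontal, log scale) for the 14352 genes at 1 CPM in at least 1 library (grey), with the 10 members in red; dashed lines mark 1.5-fold. HRK sits among the widely scattered genes of low expression, and the other members lie inside the band of abundant genes.

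The ratio of 2 members within a library does not depend on how libraries are scaled. For 12 pairs of a pore-forming or BH3-only member over a pro-survival member, the ratio in ASO-1235 was divided by that in ASO-NC. This quotient has a Wald 95% interval on the log scale from halved counts. The pairs were listed by name and are not all that the members allow, so counts of pairs hold for this list only. BID over MCL1 and BCL2L11 over BCL2L1, for instance, were not computed. BCL2L11 over BCL2, per kilobase, was 4.48 in ASO-1235 and 3.08 in ASO-NC, a quotient of 1.45 (1.24 to 1.71). BAX over BCL2, the pair long read as a rheostat of apoptosis, was 7.61 in ASO-1235 and 6.27 in ASO-NC, a quotient of 1.21 (1.02 to 1.44). Both pairs share the lower BCL2 count in ASO-1235.

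How often such an interval excludes 1 for pairs of other genes was not computed. Of all single genes, 22.8% were higher and 23.0% lower by the interval alone. With BCL2L1 as the partner, 2 of the 5 listed pairs had an interval above 1. BAK1 over BCL2L1 had a quotient of 1.18 (1.03 to 1.36) and HRK over BCL2L1 one of 1.83 (1.09 to 3.08), and the HRK pair had an interval that included 1 once the trend was taken out (0.980 to 2.78). BAX, BBC3 and BID over BCL2L1 had intervals that included 1, with quotients of 1.05, 1.16 and 0.947. With MCL1, none of the 5 pairs had an interval that excluded 1: PMAIP1 over MCL1, the pair of NOXA and its main partner, was at 0.9496 (0.842 to 1.07), BAX over MCL1 at 0.895 (0.801 to 1.001), BAK1 over MCL1 at 1.003 (0.876 to 1.15), BBC3 over MCL1 at 0.984 (0.845 to 1.14) and BCL2L11 over MCL1 at 1.07 (0.975 to 1.18). In all, the interval lay above 1 for 4 of the 12 listed pairs and below 1 for 0. After removal of the trend it lay above 1 for 5, among them BAK1 over MCL1 at 1.18 (1.03 to 1.36), and below 1 for 2, PMAIP1 over MCL1 (0.868) and BID over BCL2L1 (0.880). BAX over MCL1 moved to the other side of 1 there, at 1.07 (0.954 to 1.19). MCL1 over BCL2L1, a pair added after the values were seen, was 1.58 per kilobase in ASO-1235 and 1.34 in ASO-NC, a quotient of 1.18 (1.11 to 1.246) that was 1.02 (0.959 to 1.07) without the trend.

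**Figure D4:**
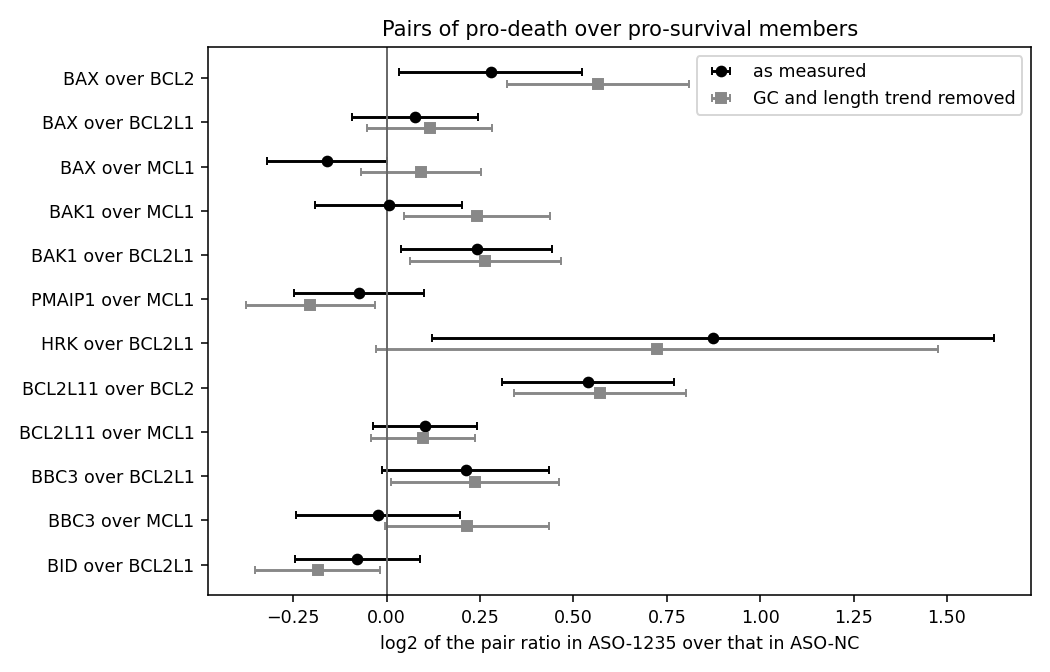
log2 of the pair ratio in ASO-1235 over the same ratio in ASO-NC (horizontal) for 12 pairs of pro-death over pro-survival members, as measured (circles) and with the GC and length trend taken out (squares), with 95% counting intervals. The quotient for BCL2L11 over BCL2 lies clear of 0 both ways, and the listed pairs over MCL1 lie near 0 as measured.

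The GC content of the transcripts moved with the ratio over all genes, and the members span a wide range of it. The median log2 ratio was 0.21 among the 2804 genes poorest in GC and −0.19 among the 2804 richest in GC. PMAIP1 had the lowest GC content of the members, 37.2%, and BBC3 the highest, 69.7%. The fitted trend amounted to 0.19 for PMAIP1, −0.17 for BBC3 and BAK1, −0.19 for BAX, 0.10 for BCL2 and −0.00025 for HRK on the log2 scale. With the trend removed, the ratios were 1.27 (1.11 to 1.45) for BAK1, 1.24 (1.07 to 1.45) for BBC3, 1.14 (1.03 to 1.27) for BAX and 0.773 (0.675 to 0.884) for BCL2. BCL2 remained the lowest member, and the part of sequence composition in these differences cannot be told apart from the rest with 1 library per group.

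Further genes of the pathway were taken from 8 lists of 80 genes, of which 69 reached 1 CPM. Of these, 5 were called higher (7.25%, against 5.20% of all genes) and 0 lower (against 2.0%), and their median log2 ratio was 0.05. The lists were chosen with earlier results of these data known, so these shares are not independent of them. None of the nearest relatives of the members was called. BCL2L2, the one other pro-survival homologue at 1 CPM, had 2270 counts in ASO-1235 and 2727 in ASO-NC, a ratio of 0.995 (0.919 to 1.08). BCL2A1 had 2 counts in each library, and BCL2L10 had 0 in both. Among 6 other BH3-only proteins, none was called, and BNIP3L, a receptor of mitophagy, was highest at 1.37 (1.27 to 1.49) and BECN1, of autophagy, lowest at 0.930 (0.848 to 1.02). Among 5 further homologues or partners at 1 CPM, BCLAF1 was highest at 1.15 (1.11 to 1.19), though its log2 ratio was −0.08 with the trend removed, and BCL2L14, with 78 counts in ASO-1235 and 118 in ASO-NC, lowest at 0.790 (0.514 to 1.20).

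Downstream of the mitochondria, none of 15 genes of the apoptosome and its effectors was called, against 5.20% higher and 2.0% lower of all genes. The 15 genes had a median log2 ratio of −0.03. DFFB, which encodes the nuclease of apoptotic DNA fragmentation, was highest at 1.24 (0.9495 to 1.61) and HTRA2, a mitochondrial protease, lowest at 0.747 (0.593 to 0.938). The inhibitors of apoptosis had a median of 0.38 over 5 genes, which was 0.13 with the trend removed. BIRC3, an NF-kB target that encodes a ubiquitin ligase, had 963 counts in ASO-1235 and 646 in ASO-NC, a ratio of 1.78 (1.54 to 2.06), and was called. With the trend removed it was at 1.47 (1.28 to 1.70) and no longer called. BIRC5, which encodes survivin and peaks in mitosis, was lowest with 1420 counts in ASO-1235 and 2231 in ASO-NC, 0.761 (0.692 to 0.837).

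In the death receptor pathway, 1 of 11 genes was called higher (9.09%, against 5.20% of all genes) and 0 lower (against 2.0%). The median log2 ratio was −0.03. CASP10, an initiator caspase gene, had 86 counts in ASO-1235 and 40 in ASO-NC, a ratio of 2.57 (1.48 to 4.61). It passed the minimum through ASO-1235 alone, at 2.27 CPM before scaling there and 0.832 in ASO-NC, and lies in the range of 1 to 2 CPM where 12.1% of genes were called higher. TNFRSF1A, the TNF receptor gene, was lowest at 0.800 (0.746 to 0.859). Of 12 genes for turnover and sequestration of MCL1 and BH3-only proteins, none was called, against 5.20% higher and 2.0% lower of all genes. GSK3B, whose kinase marks MCL1 for degradation, was highest at 1.20 (1.15 to 1.26) and DYNLL1, a dynein light chain that holds BIM, lowest at 0.849 (0.787 to 0.916).

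Transcription factors known to act on the family had a median log2 ratio of 0.20 over 14 genes. Of these, 3 were called higher (21.4%, against 5.20% of all genes). The list was chosen with earlier results of these data known, so this share is not independent of them. A share among genes at the level of FOXO1 and MITF was not computed. FOXO1, a forkhead factor known to induce BCL2L11, had 188 counts in ASO-1235 and 117 in ASO-NC, a ratio of 1.92 (1.37 to 2.71). MITF, known to induce BCL2 in melanocytes, had 339 counts in ASO-1235 and 224 in ASO-NC, 1.81 (1.42 to 2.32). DDIT3, the stress factor CHOP that is known to induce BCL2L11 and repress BCL2, had 903 counts in ASO-1235 and 715 in ASO-NC, 1.51 (1.31 to 1.74), just past 1.5-fold. With DESeq2 size factors it was at 1.48 (1.28 to 1.70) and not called. E2F1, a cell cycle factor known to induce several BH3-only genes, was lowest with 795 counts in ASO-1235 and 1331 in ASO-NC, 0.714 (0.629 to 0.810). Whether these factors had a part in the members' values was not tested.

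**Figure D5:**
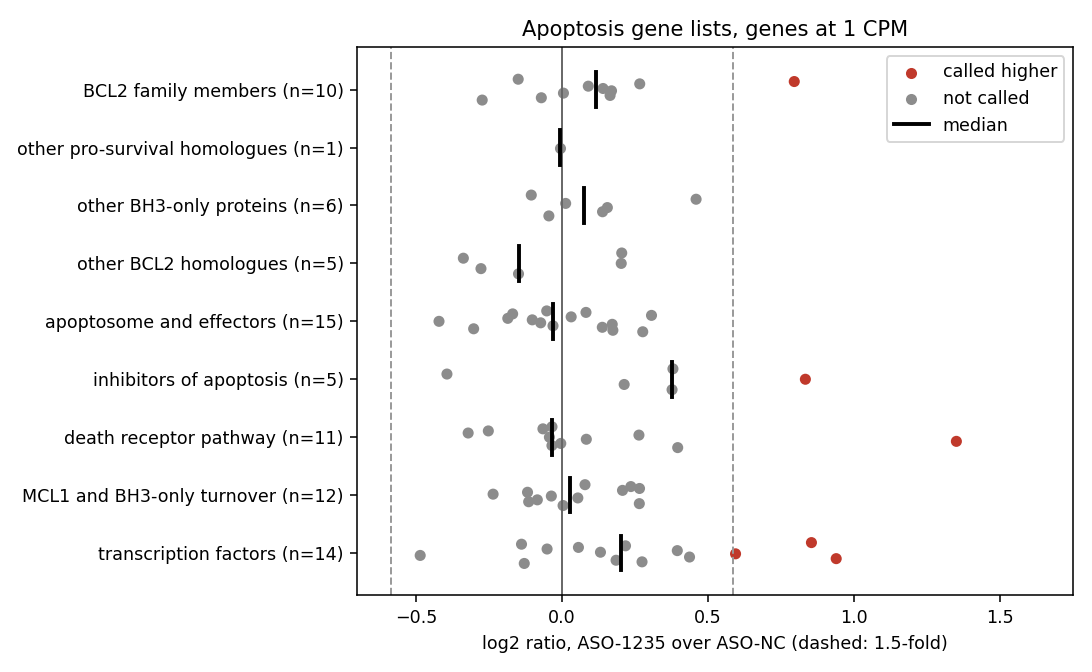
log2 ratio of ASO-1235 over ASO-NC (horizontal) for each gene at 1 CPM in the BCL2 family and 8 further apoptosis lists, with the median of each list as a black bar and genes called higher in red; dashed lines mark 1.5-fold. The 6 red points are HRK, BIRC3, CASP10, FOXO1, MITF and DDIT3, and no gene lies past the lower line.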

How the data were processed

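The authors deposited 1 table of raw read counts per gene, in whole numbers. The submitters' processing notes name STAR 2.7.11a and featureCounts 2.0.6 with build hg38. Strand setting and filters were not given in the sources used here, nor was the annotation release. The table held 62699 gene IDs with counts, all matched to a name, and 1 ID without counts was left out.

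TMM factors (edgeR 4.0.16, R 4.3.3) came from the 14352 genes at 1 CPM in at least 1 library: 1.03 for ASO-1235 and 0.971 for ASO-NC. No edgeR test was run, as 1 library a group leaves no spread to test against. Ratios are of scaled counts, and medians use log2 ratios with a prior count of 0.5. Counts were halved for intervals because each mate of a pair seems to have been counted. Intervals and floors cover counting error only. Exon lengths and GC content came from GENCODE 29, matched without ID version, and a trend on GC content and log2 length of the longest transcript (fitted to 97.7% of genes by robust regression in statsmodels 0.14.6, each as a spline of 5 degrees of freedom) was removed as an alternative. Calculations used Python 3.11.15, scipy 1.17.1 and pandas 2.3.3, and were run on simulated data. Every simulated count was even, unlike in these libraries, so that run does not test how well the intervals cover here.

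The members and gene lists were chosen with earlier results of these data known. All 10 members are named, and of each further list up to 3 genes called each way and those with the highest and lowest ratio at 1 CPM. Genes below that minimum are named with their counts as examples.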

Additional observations from a re-analysis of the deposited data

How the results depend on the processing

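No paired analysis was possible because each group has 1 library. The call of HRK rests on 70 counts in ASO-1235 and 48 in ASO-NC. The number of members called higher was 1 as reported and 0 with DESeq2 size factors, with a minimum of 5 CPM or at 2-fold. It stayed at 1 under the other alternatives run. Those loosened the rule, raised the ratio of HRK or left the values behind its call nearly unchanged, so they put the call to no real test. With a minimum of 5 CPM, 380 genes of all and 3 of the pathway lists were called, in place of 1033 and 5. At 2-fold these were 415 and 1, and at the lowest fold tried, a ratio of 5 to 4, they were 2982 and 13. The number of pairs whose interval excluded 1 was 4 as reported, and 7 both with intervals on counts as deposited and with the GC and length trend removed. The first follows from narrower intervals, and for the second the cause was not tested. No member was called lower under any alternative run. The members' median log2 ratio lay between 0.09 and 0.20 in all of them. The median of all genes tested moved with it. With DESeq2 size factors these medians were 0.09 for the members and −0.03 for all genes. With scaling by total count they were 0.20 and 0.09. Log2 ratios ranged over the alternatives from −0.37 to −0.19 for BCL2, 0.10 to 0.25 for MCL1, 0.20 to 0.35 for BCL2L11 and 0.74 to 0.88 for HRK. They spanned 0 for BCL2L1 (−0.10 to 0.08), BAX (−0.02 to 0.19) and PMAIP1 (−0.10 to 0.18).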
